A study of Mus musculus with 12 samples.

Results

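The genes described here encode the machinery that imports proteins into mitochondria and folds them there. They were read from the RNA of mouse bone marrow cells captured by a B-lineage surface protein, with and without a Myc transgene. Members were the probe sets whose only gene symbol starts with Timm or Tomm followed by a digit, or is 1 of a short list of chaperones, peptidase subunits and assembly factors (Hspd1, Hspe1, Hspa9, Grpel1, Trap1, Phb, Phb2, Pmpca, Pmpcb, Chchd4, Samm50, Dnajc19 and C1qbp). This gave 74 of 45101 probe sets and 34 of 18194 genes. Of the 34 genes, 32 passed the filter on low values (a log2 intensity above 4 on at least 3 of the 12 arrays), as did 10287 genes in all. The remaining members, Timm8a2 (intensities 8 to 11) and Tomm20l (6 to 7), never rose above that floor and were not tested. Phb and Dnajc19 lie only on probe sets with several symbols and have no value here. The rule uses names and functions and no measured value, but it was written with earlier results of these data known.

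The 12 Affymetrix arrays hold total RNA of bone marrow cells that were captured on magnetic beads against B220, a surface protein of the B lineage, from littermates aged 4 to 6 weeks with a strain background that is 94% C57BL/6. There are 4 groups of 3 arrays: wild type, Eµ-TTP-1 (called TTP), Eμ-Myc (called Myc) and Eμ-Myc;Eµ-TTP-1 (called Myc TTP), both Myc groups being described as precancerous. The Eµ enhancer of the immunoglobulin heavy chain locus drives its transgene in B cells, so that Myc, a transcription factor, and TTP, an RNA-binding protein that promotes mRNA decay and is encoded by Zfp36, are overexpressed in that lineage. The design addresses what each transgene alters alone and what TTP alters when Myc is present.

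The Myc signal separated most arrays by their labels, but not all. Myc read 805, 819 and 6411 in wild type, 1060, 1343 and 11360 in TTP, 13361, 15451 and 8163 in Myc, and 3617, 6801 and 10551 in Myc TTP, each in the order of arrays 1, 2 and 3. The array labelled wild type 3 and that labelled TTP 3 thus carried a Myc signal in the range of the Myc and Myc TTP arrays, which goes against their labels, and they are called the discordant pair below. Zfp36 was not higher with the TTP transgene either: it read 1663, 892 and 918 in wild type, 939, 952 and 878 in TTP, 623, 647 and 1022 in Myc, and 177, 393 and 579 in Myc TTP. Whether this probe set reads the transcript of the transgene was not tested. Results below are therefore given by label, and also without the discordant pair where that changes a call by the mean Myc difference, and for several of the largest differences. The pair was set aside with its Myc signal known, so values without it only describe the other arrays and are not separate tests. The B lineage was present on every array, with Cd79a, a subunit of the B-cell receptor, at a log2 intensity of 14.03 to 15.06. However, 9 of 10 B lineage markers fell with Myc, Vpreb1 of the pre-B receptor from 13.23, 13.06 and 12.07 in wild type to 8.37, 8.30 and 11.73 in Myc, and granulocyte markers were abundant on the wild-type and TTP arrays (values below).

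Nearly all mitochondrial proteins are made in the cytosol and imported. The TOM complex forms the gate in the outer membrane. Behind it, the TIM23 channel passes proteins with a cleavable presequence into the matrix, pulled by a motor built on the HSP70 protein Hspa9, whereas carrier proteins are guided by small TIM chaperones to the TIM22 complex. In the matrix a peptidase removes the presequence and the chaperonin Hspd1 with its lid Hspe1 folds the product. Myc is known to raise the expression of many nuclear genes for mitochondrial proteins.

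Import genes read higher on average in the samples labelled Myc and Myc TTP than in those labelled wild type and TTP. The mean Myc difference, used below as the main value, is the average of 2 differences on the log2 scale: Myc minus wild type, and Myc TTP minus TTP. A gene is said to have risen or fallen when this value had an adjusted p under 0.05 in limma, by the method of Benjamini and Hochberg over 10287 genes. Of the 32 members tested, 26 rose and 0 fell. Among all genes tested 18.7% rose and 24.6% fell. The median mean Myc difference was 0.53 for the members (range -0.01 to 1.41) and -0.06 for all genes tested, and it was above 0 for 31 of 32 members, against 45.5% of all genes. The largest differences, 2.34-fold to 2.67-fold, were in the small TIM chaperones Timm9, Timm8a1 and Timm10 and in their oxidase Chchd4, followed by Trap1, Tomm40 and Hspa9. Those that did not pass were Tomm20, Tomm70a, Timm10b, Timm29, Timm17b and Pmpcb. The samples of a group are labelled as biological replicates without naming the animals, so the p-values measure the spread between these samples. In such bulk samples, fewer cells of a type and less RNA per cell cannot be told apart.

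**Figure D1:**
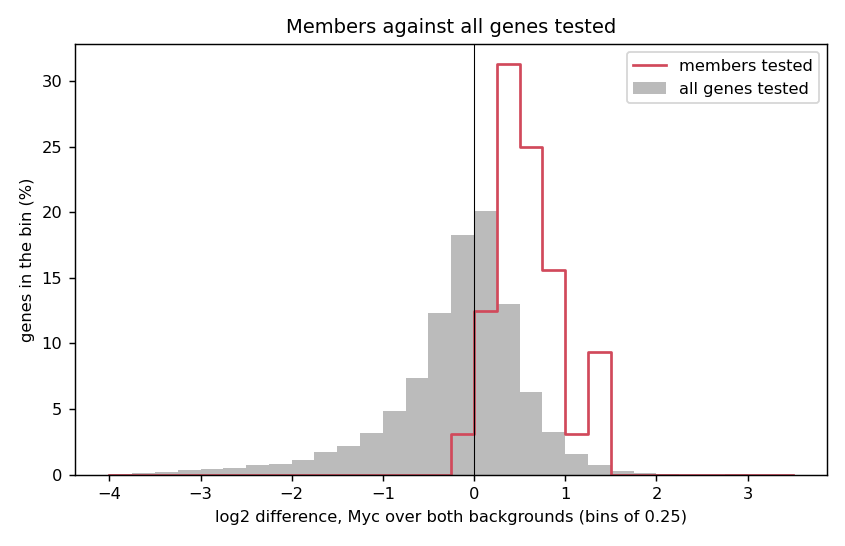
Share of genes (vertical axis, %) in bins of the mean Myc difference (horizontal axis, log2, Myc over both backgrounds), for all 10287 genes tested (grey) and the 32 members tested (red line). The members have a median of 0.53 and the genes tested one of -0.06.

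The 4 members with the largest mean Myc difference were Timm9, Chchd4, Timm8a1 and Timm10. All act in the space between the outer and inner membrane: Timm9 and Timm10 form a ring that carries hydrophobic proteins across it, Timm8a1 is part of a similar ring with Timm13, and Chchd4 (Mia40) is the oxidase that forms the disulfide bonds of these small TIM proteins and so retains them there. Their promoters are shown because these genes moved together. Each window runs from 250 bases before to 50 bases after the annotated start, 5′ to 3′ on the gene's strand, from RefSeq on build GRCm38.p6. Capitals mark CACGTG, the E-box that Myc binds as a dimer with Max, which reads the same on both strands. Timm9 lies at chr12:71136626-71136925 on the minus strand, Timm8a1 at chrX:134541621-134541920 on the minus strand, Timm10 at chr2:84826771-84827070 on the plus strand and Chchd4 at chr6:91473374-91473673 on the minus strand.
Timm9: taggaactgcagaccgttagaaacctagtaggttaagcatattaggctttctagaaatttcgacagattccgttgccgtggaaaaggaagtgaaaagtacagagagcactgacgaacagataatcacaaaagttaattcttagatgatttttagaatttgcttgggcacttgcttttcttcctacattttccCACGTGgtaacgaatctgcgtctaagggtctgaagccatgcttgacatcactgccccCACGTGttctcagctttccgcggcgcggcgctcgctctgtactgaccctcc
Timm8a1: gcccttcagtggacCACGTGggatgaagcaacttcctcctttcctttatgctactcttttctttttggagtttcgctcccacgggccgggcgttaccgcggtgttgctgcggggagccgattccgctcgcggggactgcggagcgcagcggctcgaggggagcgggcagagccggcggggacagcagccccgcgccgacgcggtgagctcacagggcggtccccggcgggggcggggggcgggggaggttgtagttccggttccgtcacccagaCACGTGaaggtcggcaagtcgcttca
Timm10: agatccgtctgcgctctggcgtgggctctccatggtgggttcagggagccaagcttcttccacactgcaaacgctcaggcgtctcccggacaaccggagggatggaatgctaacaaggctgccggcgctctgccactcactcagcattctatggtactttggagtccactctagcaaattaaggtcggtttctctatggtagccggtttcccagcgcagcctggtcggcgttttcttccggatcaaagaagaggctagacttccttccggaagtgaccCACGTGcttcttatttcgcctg
Chchd4: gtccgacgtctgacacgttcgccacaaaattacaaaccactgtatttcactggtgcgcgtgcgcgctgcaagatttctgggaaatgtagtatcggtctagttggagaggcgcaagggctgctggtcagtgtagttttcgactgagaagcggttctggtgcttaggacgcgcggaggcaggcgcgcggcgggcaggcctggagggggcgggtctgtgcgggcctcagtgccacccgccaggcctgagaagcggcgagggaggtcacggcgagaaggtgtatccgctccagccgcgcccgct
Counting the first transcribed base as position 1, the hexamer starts at -58 and -1 in Timm9, at -236 and 25 in Timm8a1 and at 29 in Timm10. The Chchd4 window does not hold these letters. Of the 34 members, 30 matched a RefSeq promoter, and 6 of these 30 (20%) held CACGTG in at least 1 window, against 8.09% of the 27025 genes in the same table. The other members with the hexamer were Hspd1, Tomm20 and Tomm20l. A match is a description of the sequence only, and binding was not measured.

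Timm9 read 127, 113 and 515 in wild type, 176, 147 and 408 in TTP, 686, 527 and 393 in Myc, and 579, 567 and 599 in Myc TTP. Arrays 1 and 2 of wild type and TTP were at 176 or below, and every other array was at 393 or above, so that the groups overlapped only through the arrays numbered 3. Its mean Myc difference was 1.41 ± 0.38 (standard error; 2.67-fold, adjusted p = 0.0182 in limma), and 1.99 ± 0.16 without the discordant pair. Chchd4 read 609, 661 and 1357 in wild type, 639, 800 and 1420 in TTP, 2393, 2440 and 1470 in Myc, and 2600, 2454 and 1905 in Myc TTP. It was the only member with all 6 Myc and Myc TTP arrays above all 6 other arrays, a pattern that 0.758% of all genes tested showed. Its mean Myc difference was 1.34 ± 0.25 (2.53-fold, adjusted p = 0.0169), and it alone passed the test in Myc against wild type by itself (1.32 ± 0.36, adjusted p = 0.0479). That single call was lost under 7 alternatives (no filter, the probe set of largest spread, quantile normalization, a common median, no trend, an unmoderated model and the replicate block) and in 8 of the 12 fits without 1 array. It was kept without TTP 2, without Myc 3 and without either array of the discordant pair.

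Timm8a1 read 911, 951 and 2583 in wild type, 959, 1181 and 2423 in TTP, 3675, 3703 and 2355 in Myc, and 3716, 3290 and 3478 in Myc TTP. Timm10 read 927, 1120 and 2476 in wild type, 966, 931 and 2292 in TTP, 3296, 3390 and 2149 in Myc, and 3356, 3206 and 3343 in Myc TTP. In both genes the lowest Myc array, numbered 3, lay below the discordant pair and above arrays 1 and 2 of those groups. Myc array 3 lay below the array labelled wild type 3 in 85.4% of all genes tested. The mean Myc difference was 1.30 ± 0.29 for Timm8a1 (2.46-fold, adjusted p = 0.0169) and 1.22 ± 0.28 for Timm10 (2.34-fold, adjusted p = 0.0169), and without the discordant pair 1.74 ± 0.14 and 1.65 ± 0.13. Timm13, the partner of Timm8a1 in its ring, rose by less: it read 4719, 5197 and 7626 in wild type, 4547, 5146 and 6451 in TTP, 6942, 8168 and 6081 in Myc, and 9647, 7929 and 9182 in Myc TTP. Timm13 had a mean Myc difference of 0.52 ± 0.14 (1.43-fold, adjusted p = 0.0175), and the Myc arrays overlapped the wild-type arrays.

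The remaining members of this branch moved less. Timm22, the channel that inserts carriers into the inner membrane, rose 1.35-fold (adjusted p = 0.0258), from 472 to 745 in wild type and 555 to 658 in TTP to 621 to 768 in Myc and 792 to 993 in Myc TTP. Timm8b, a further small TIM, rose by 0.35 ± 0.11 (adjusted p = 0.0284). Timm29, a subunit of the TIM22 complex, did not pass at 0.19 ± 0.12 (adjusted p = 0.214), and its probe sets above the floor spanned 0.19 to 0.88. The other arrays, without the discordant pair, gave Timm29 0.31 ± 0.09 (adjusted p = 0.017). Timm10b, bound to the TIM22 complex, had one of the 3 smallest differences of Myc against wild type. It read 4983, 5427 and 5868 in wild type, 4856, 5338 and 5100 in TTP, 5320, 5464 and 4933 in Myc, and 6707, 5983 and 6231 in Myc TTP. The Myc arrays lay within the range of the wild-type arrays apart from the lowest, and the Myc TTP arrays lay above all others. Its mean Myc difference was 0.13 ± 0.07 (adjusted p = 0.131). In all, 7 of the 9 tested members of the TIM22 and small TIM branch rose, with a median of 0.52.

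**Figure D2:**
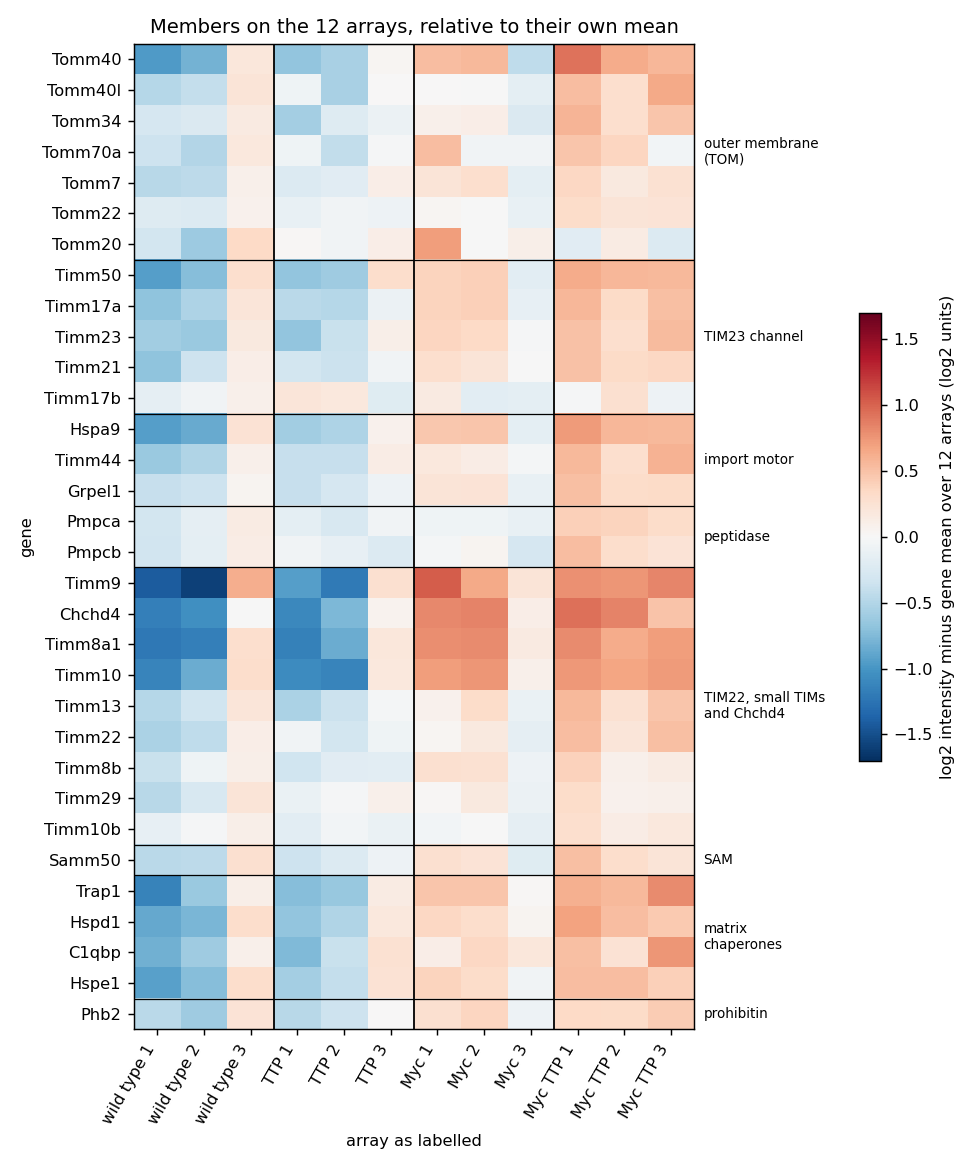
Log2 intensity of each of the 32 members tested on each of the 12 arrays, as the difference from that member's mean over the arrays, with members grouped by role. Arrays 1 and 2 of wild type and TTP are below the mean for 30 or more of the members, and the array labelled wild type 3 is above it for 31.

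The matrix chaperones all rose. Hspd1 (HSP60) forms the folding chamber and Hspe1 (HSP10) closes it. The pair lies head to head on chromosome 1 with a shared promoter: their windows, chr1:55087883-55088182 on the minus strand for the first Hspd1 start and chr1:55087898-55088197 on the plus strand for Hspe1, have 285 bases in common. The Hspe1 window and that of the second Hspd1 start (chr1:55088194-55088493, minus strand) are shown because together they cover the stretch between and around the starts of both genes. Capitals again mark CACGTG, which starts at -80 from the second Hspd1 start and is not in the Hspe1 window.
Hspe1: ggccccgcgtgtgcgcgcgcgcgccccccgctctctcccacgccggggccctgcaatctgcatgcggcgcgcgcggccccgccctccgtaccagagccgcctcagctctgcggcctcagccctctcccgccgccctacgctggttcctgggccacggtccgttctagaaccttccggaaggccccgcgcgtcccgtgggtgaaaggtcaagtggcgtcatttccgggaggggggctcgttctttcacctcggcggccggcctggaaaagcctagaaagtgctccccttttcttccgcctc
Hspd1, second start: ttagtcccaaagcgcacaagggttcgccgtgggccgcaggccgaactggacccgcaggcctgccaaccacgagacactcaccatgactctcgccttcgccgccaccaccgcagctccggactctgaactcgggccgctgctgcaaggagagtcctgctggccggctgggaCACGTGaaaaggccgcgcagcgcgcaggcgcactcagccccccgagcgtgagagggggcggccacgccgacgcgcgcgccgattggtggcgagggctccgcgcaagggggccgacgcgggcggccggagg
Hspd1 read 12007, 12728 and 27028 in wild type, 13782, 15387 and 24701 in TTP, 28054, 26944 and 22576 in Myc, and 35019, 31367 and 29929 in Myc TTP. Hspe1 read 2335, 2684 and 5455 in wild type, 2975, 3356 and 5242 in TTP, 5786, 5514 and 4259 in Myc, and 6353, 6350 and 5878 in Myc TTP. The order of the arrays was much alike in both: arrays 1 and 2 of wild type and TTP were the 4 lowest, and the 3 Myc TTP arrays the 3 highest. The mean Myc difference was 0.78 ± 0.21 for Hspd1 (1.72-fold, adjusted p = 0.0175) and 0.70 ± 0.21 for Hspe1 (1.62-fold, adjusted p = 0.0251). Without the discordant pair these values were 1.10 ± 0.08 and 1.00 ± 0.10. Hspe1 is 1 of the members whose call was lost in some of the fits that left out 1 array, described below.

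Trap1, the HSP90 protein of mitochondria, read 761, 1075 and 1789 in wild type, 1014, 1070 and 1834 in TTP, 2310, 2312 and 1693 in Myc, and 2545, 2449 and 2908 in Myc TTP. Only Myc array 3 among the 6 Myc and Myc TTP arrays lay below the discordant pair. The mean Myc difference of Trap1 was 0.97 ± 0.21 (1.96-fold, adjusted p = 0.0169), while another of its probe sets gave 0.39. C1qbp (p32), a matrix protein needed for mitochondrial translation, read 7631, 8890 and 14291 in wild type, 7994, 10397 and 16150 in TTP, 14612, 17158 and 15444 in Myc, and 19268, 16030 and 22744 in Myc TTP. C1qbp was, besides Chchd4, the only member with all Myc arrays above all wild-type arrays, against 3.49% of all genes. It rose 1.66-fold (0.73 ± 0.19, adjusted p = 0.0173). Its probe set carries the suffix of sets that may cross-hybridise, and its other probe set gave 0.98.

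All 3 members of the import motor rose. Among motor genes outside the members, Pam16 (0.59 ± 0.22, adjusted p = 0.0517), Grpel2 (0.13 ± 0.13, adjusted p = 0.432) and Dnajc15 (0.10 ± 0.10, adjusted p = 0.462) did not pass. Hspa9 (mortalin), the HSP70 that pulls proteins into the matrix, read 2916, 3084 and 6636 in wild type, 3694, 3899 and 5881 in TTP, 7701, 7709 and 4985 in Myc, and 9185, 8231 and 8151 in Myc TTP. Hspa9 had a mean Myc difference of 0.86 ± 0.22 (1.82-fold, adjusted p = 0.0169). Grpel1, the exchange factor that releases ADP from Hspa9, read 2007, 2061 and 2728 in wild type, 2002, 2170 and 2476 in TTP, 3070, 3090 and 2426 in Myc, and 3748, 3286 and 3294 in Myc TTP. It rose less than Hspa9 in size but with little spread, at 0.49 ± 0.11 (1.41-fold, adjusted p = 0.0169). Timm44, which tethers Hspa9 to the channel, read 1004, 1084 and 1645 in wild type, 1180, 1186 and 1695 in TTP, 1758, 1696 and 1509 in Myc, and 2278, 1895 and 2335 in Myc TTP. For Timm44 the mean Myc difference was 0.57 ± 0.14 (1.48-fold, adjusted p = 0.0169). In all 3 genes Myc array 3 was the lowest of the Myc and Myc TTP arrays.

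Of the TIM23 channel, 4 of 5 members rose. Timm23, the pore, read 3701, 3619 and 6298 in wild type, 3520, 4309 and 5976 in TTP, 7204, 7083 and 5529 in Myc, and 7945, 6810 and 8151 in Myc TTP. Timm50, the receptor that takes presequences from the TOM complex, read 829, 959 and 1938 in wild type, 992, 1047 and 1948 in TTP, 2071, 2096 and 1405 in Myc, and 2448, 2340 and 2321 in Myc TTP. Both showed the overlap through array 3 seen above. Timm23 rose 1.59-fold (0.67 ± 0.17, adjusted p = 0.0169) and Timm50 1.72-fold (0.78 ± 0.23, adjusted p = 0.0238). Timm21, which links the channel to the outer membrane, rose 1.47-fold (0.55 ± 0.13, adjusted p = 0.0169).

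The paralogs Timm17a and Timm17b, alternative partners of Timm23 in the channel, gave different values. Timm17a read 1113, 1242 and 2060 in wild type, 1298, 1277 and 1671 in TTP, 2319, 2371 and 1623 in Myc, and 2633, 2232 and 2557 in Myc TTP. Timm17b read 1212, 1291 and 1435 in wild type, 1556, 1527 and 1169 in TTP, 1503, 1191 and 1199 in Myc, and 1329, 1630 and 1276 in Myc TTP. The Timm17b groups all overlapped, and its values had no order by Myc label. The mean Myc difference was 0.68 ± 0.16 for Timm17a (adjusted p = 0.0169) and -0.01 ± 0.11 for Timm17b (adjusted p = 0.935). The difference between the paralogs was not itself tested. The sign of Timm17b changed with the scaling of the arrays and with the probe set (0.13 for its other set), and its probe set carries the cross-hybridisation suffix.

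In the outer membrane 5 of the 7 TOM members tested rose, with a median of 0.40. Tomm40, the pore, led them: it read 980, 1093 and 2199 in wild type, 1201, 1305 and 1962 in TTP, 2743, 2806 and 1423 in Myc, and 3648, 2963 and 2844 in Myc TTP. Its Myc array 3 was nearer to the arrays 1 and 2 of wild type and TTP than to the other Myc arrays. Tomm40 rose 1.90-fold (0.92 ± 0.24, adjusted p = 0.0173). Tomm22, the central receptor that holds the complex together, read 4575, 4533 and 5631 in wild type, 4897, 5101 and 5022 in TTP, 5447, 5315 and 4887 in Myc, and 6620, 6220 and 6244 in Myc TTP. It had the smallest difference of the members that rose (0.22 ± 0.07, 1.16-fold, adjusted p = 0.031), and the Myc TTP arrays alone lay above all wild-type and TTP arrays.

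The receptors that first bind incoming proteins did not pass the test. Tomm20, the receptor for presequences, read 11839, 9551 and 18520 in wild type, 14804, 14039 and 15821 in TTP, 23980, 14544 and 15730 in Myc, and 12883, 16100 and 12532 in Myc TTP. Its groups overlapped throughout, and its mean Myc difference was 0.175 ± 0.17 (adjusted p = 0.413), or 0.33 ± 0.15 (adjusted p = 0.0728) without the discordant pair. Over the 6 Tomm20 probe sets above the floor this value spanned 0.175 to 0.92, and with the set of largest spread it was called. Tomm70a, the receptor for carriers, read 1951, 1761 and 2813 in wild type, 2367, 1873 and 2454 in TTP, 3575, 2400 and 2401 in Myc, and 3461, 3214 and 2421 in Myc TTP. Its mean Myc difference was 0.40 ± 0.16 (adjusted p = 0.06), and 0.54 ± 0.15 (adjusted p = 0.0112) without the discordant pair. Of the others, Tomm34, a cytosolic co-chaperone of import, rose by 0.43 ± 0.12, the Tomm40 paralog Tomm40l by 0.43 ± 0.15 and the small subunit Tomm7 by 0.37 ± 0.12. Their adjusted p-values were 0.0207, 0.041 and 0.0344.

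Samm50, which inserts barrel proteins such as Tomm40 into the outer membrane, read 5193, 5228 and 8614 in wild type, 5616, 6098 and 6712 in TTP, 8598, 8358 and 6182 in Myc, and 10144, 8766 and 8323 in Myc TTP. It rose 1.35-fold (0.44 ± 0.14, adjusted p = 0.0304). Phb2, a subunit of the prohibitin ring that holds inner membrane proteins, read 3872, 3501 and 6222 in wild type, 3819, 4176 and 5315 in TTP, 6438, 6847 and 4985 in Myc, and 6740, 6630 and 7171 in Myc TTP. It rose 1.46-fold (0.55 ± 0.15, adjusted p = 0.0182). For both, Myc array 3 was again below the array labelled wild type 3, as it was in 85.4% of all genes tested.

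The processing peptidase, whose subunits Pmpca and Pmpcb together remove presequences, had the lowest median mean Myc difference of the roles, 0.27. Pmpca read 1077, 1205 and 1467 in wild type, 1191, 1105 and 1279 in TTP, 1270, 1274 and 1226 in Myc, and 1763, 1736 and 1654 in Myc TTP. Pmpcb read 1729, 1930 and 2363 in wild type, 2082, 1974 and 1839 in TTP, 2124, 2245 and 1782 in Myc, and 3103, 2660 and 2550 in Myc TTP. Only the Myc TTP arrays stood above the rest in both. Myc against wild type gave 0.02 ± 0.13 for Pmpca and 0.04 ± 0.14 for Pmpcb, beside a median of -0.21 for all genes. Myc TTP against TTP gave 0.53 ± 0.13 and 0.49 ± 0.14, beside 0.09 for all genes. The mean Myc difference passed for Pmpca (0.27 ± 0.09, 1.21-fold, adjusted p = 0.0309) and not for Pmpcb (0.26 ± 0.10, adjusted p = 0.0541). For Pmpcb the arrays without the discordant pair gave 0.30 ± 0.09 (adjusted p = 0.0192). In Myc TTP against Myc the median of this pair was 0.44, the highest of the roles, beside 0.27 for all genes. In that comparison neither passed. The median of all genes there depended on scaling, and was 0.0064 with each array set to a common median. The Pmpca probe set with the largest spread gave 0.57, which moves its value by more than 1.5 times.

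**Figure D3:**
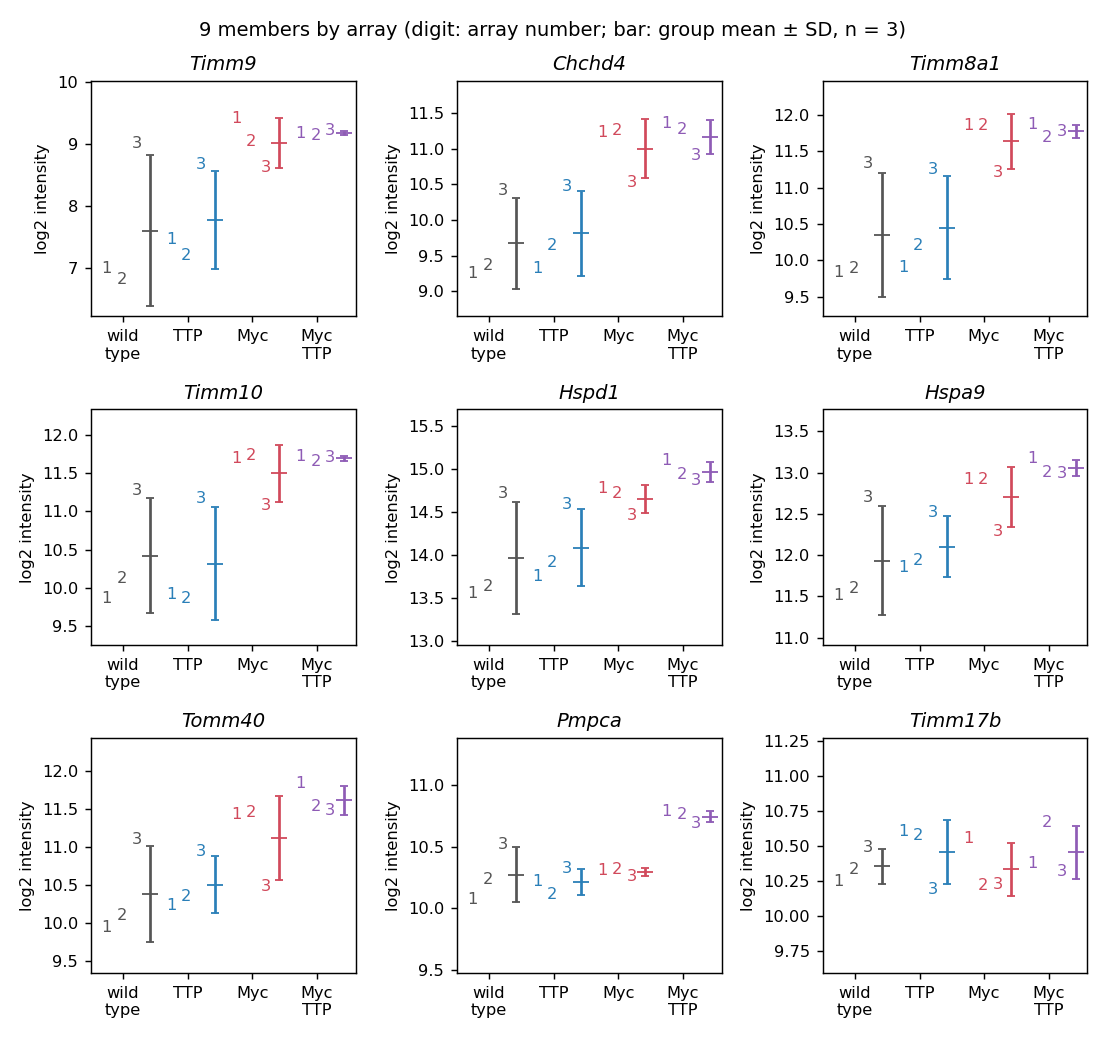
Log2 intensity of 9 members on each array, shown as the array number, with each group's mean and SD (n = 3) as a bar beside it. In Timm9, Chchd4, Timm8a1, Timm10, Hspd1, Hspa9 and Tomm40 the arrays labelled wild type 3 and TTP 3 lie above arrays 1 and 2 of their groups and Myc 3 lies below Myc 1 and 2.

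Taken alone, neither Myc comparison had the members pass as a group. In Myc against wild type 1 of 32 members rose (Chchd4), where 0.467% of all genes rose, and 0 fell, where 10.6% of all genes fell. At an unadjusted p under 0.05, 13 members were higher, against 7.99% of all genes. The median difference was 0.45 for the members and -0.21 for all genes, and 30 of 32 members were higher against 34.5% of all genes. In Myc TTP against TTP 0 members passed, as did 0 genes in all. The smallest adjusted p in limma was 0.0607, and 27 members had an unadjusted p under 0.05 (26.1% of all genes). There 30 of 32 members were higher (57% of all genes), and 27 had all 3 Myc TTP arrays above all 3 TTP arrays, against 30.6% of all genes. Their median difference was 0.69, beside 0.09 for all genes.

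These counts turned on the discordant pair. Without it, limma called 23 members higher in Myc against wild type (14% of all genes), 28 in Myc TTP against TTP (21%) and 29 by the mean Myc difference (24.1%), and called 0 lower. All 26 members of the full set were among the 29, and Pmpcb, Timm29 and Tomm70a were added. The member median of the mean Myc difference was then 0.70. The pair was set aside with its Myc signal known, so these counts only describe the other arrays. In the full set, 16 of the 26 members passed in each of the 12 fits that left out 1 array. The others were Hspe1, Pmpca, Samm50, Timm22, Timm50, Timm8b, Tomm22, Tomm34, Tomm40l and Tomm7, and the same 16 were the ones left without wild type 1, wild type 2, TTP 1, Myc 1 or Myc 2 in turn. In those fits 9.34% to 10.3% of all genes were called higher, beside 18.7% in the full set, so calls were lost among all genes too. The share of all genes called in each of the 12 fits was not counted.

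**Figure D4:**
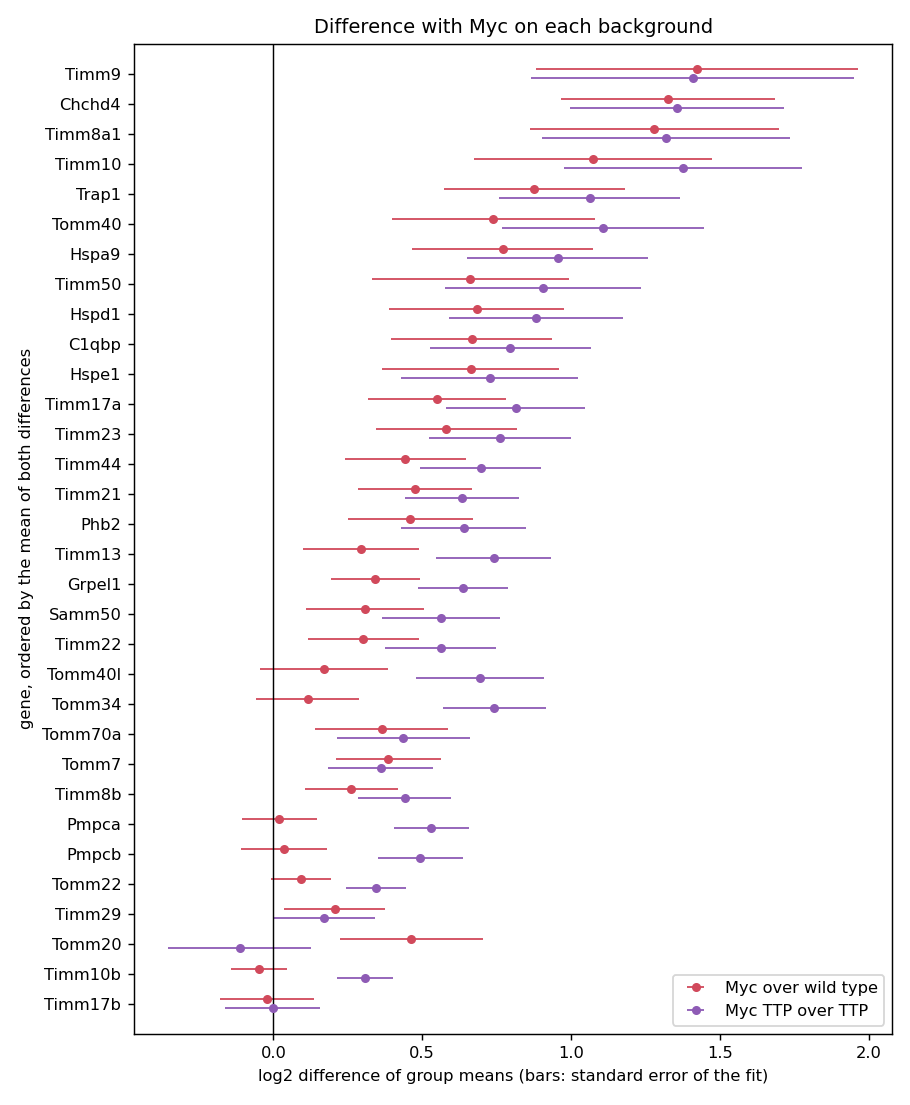
Log2 difference of Myc over wild type (red) and of Myc TTP over TTP (purple) for each of the 32 members tested, with standard errors of the fit as bars, ordered by the mean of both. Timm9 leads with 1.42 and 1.41, and Tomm20 is the member whose Myc TTP value lies farthest below 0 (-0.11).

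Of the arrays numbered 3, those of wild type, TTP and Myc stood apart from their groups in the members, while that of Myc TTP lay between the other Myc TTP arrays. Taking for each array the median over the 32 members of the deviation from the member's own mean, wild type gave -0.51, -0.51 and 0.17, TTP -0.43, -0.37 and 0.02, Myc 0.27, 0.27 and -0.11, and Myc TTP 0.52, 0.31 and 0.46. The array labelled wild type 3 lay above wild type 1 and 2 in all 32 members, against 41% of all genes, with a median difference of 0.69 (range 0.17 to 2.11) beside -0.02 for all genes. The array labelled TTP 3 lay above TTP 1 and 2 in 27 members, against 25.2% of all genes. Myc array 3 lay below Myc 1 and 2 in 28 members, against 41.9% of all genes, and below the array labelled wild type 3 in 30, against 85.4%. With arrays 3 of wild type and TTP set aside, 22 members had all 6 Myc and Myc TTP arrays above the 4 that remained, against 15.1% of all genes. The Myc TTP arrays 1 and 2 had the lowest Myc signals of their kind, 3617 and 6801, and among the highest import gene levels. The order of the arrays by Myc and by the members was thus not the same. These levels include shifts of whole arrays. The same median deviation over all genes tested was 0.23, 0.06 and -0.02 in Myc TTP and -0.13, -0.13 and -0.15 in Myc. The part of these shifts in the order was not tested.

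**Figure D5:**
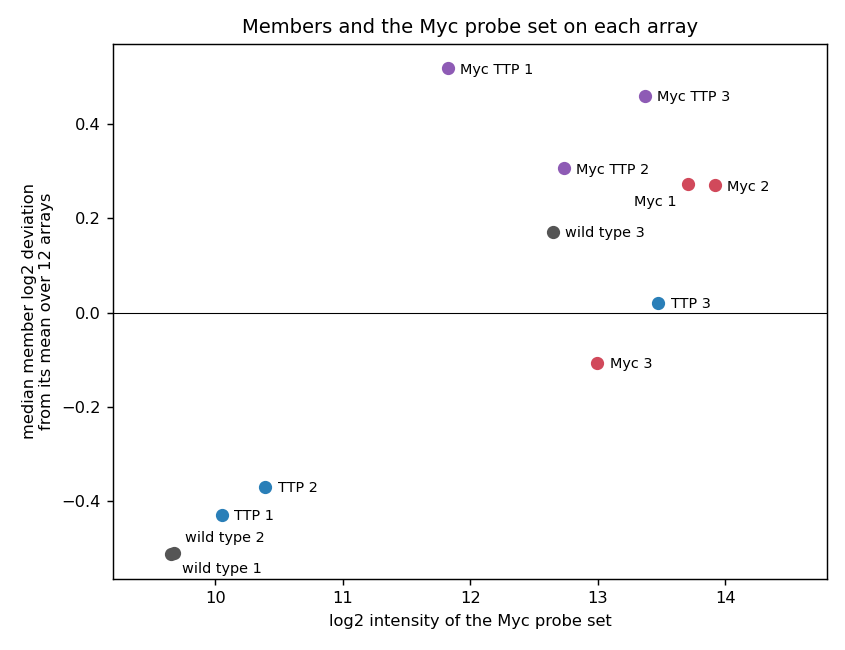
Median deviation of the 32 members on each array (log2, vertical axis) against the array's Myc log2 intensity (horizontal axis), 1 point an array and colours for the labelled groups. The 4 arrays with the lowest Myc signal (9.65 to 10.39) have the lowest member medians (-0.51 to -0.37), and the other 8 lie between -0.11 and 0.52.

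No member passed the test for a difference with TTP. Without Myc, 0 of 32 members had an adjusted or an unadjusted p under 0.05 in TTP against wild type, where 0.224% of all genes were higher and 1.22% lower at an unadjusted p under 0.05. No member had all TTP arrays above all wild-type arrays (0.603% of all genes), 22 of 32 were higher (36.4% of all genes), and the median difference was 0.08 (-0.06 for all genes). The sign of this median rested on single arrays: it was -0.10 without wild type 1, -0.05 without wild type 2, -0.10 without TTP 3, 0.31 without wild type 3 and 0.18 without the discordant pair. With Myc present, 31 of 32 members were higher in Myc TTP than in Myc, against 85% of all genes, with a median of 0.27 for the members and 0.27 for all genes. Of these, 6 had an unadjusted p under 0.05 (18.2% of all genes) 16 had all Myc TTP arrays above all Myc arrays (32.3%), and 0 passed after adjustment (smallest adjusted p 0.178 in limma). On the probe sets used, the exception in direction was Tomm20, at -0.36 ± 0.24. Of its other 5 sets, 3 were below 0 and the others gave 0.24 and 0.70. Another set above the floor was also below 0 in Hspa9, Hspe1, Timm22, Tomm7, Tomm22, Tomm40l, Tomm70a and Trap1. The direction in these members therefore depended on the probe set. This shift of all genes depends on scaling: with each array set to a common median, the median in Myc TTP against Myc was 0.0064 for all genes and 0.0030 for the members.

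The difference between the Myc effects with and without the TTP transgene (the interaction) passed for 0 members and 0 genes in all (smallest adjusted p of a member 0.358 in limma), and 4 members had an unadjusted p under 0.05 toward a higher effect with TTP and 0 toward a lower one, against 12.8% and 0.369% of all genes. The median interaction was 0.19 for the members and 0.34 for all genes. With each array set to a common median it was -0.13 and 0.01. The widest gaps were in Tomm34, with 0.11 ± 0.17 for Myc against wild type and 0.74 ± 0.17 for Myc TTP against TTP, and in Tomm20, with 0.46 ± 0.24 and -0.11 ± 0.24. The interaction was 0.63 for Tomm34 (adjusted p = 0.359) and -0.58 for Tomm20 (adjusted p = 0.438), and neither passed. For Tomm20 the 2 probe sets above 0 in Myc TTP against Myc gave an interaction of 0.23 and 0.78. These comparisons share their Myc, TTP and wild-type arrays with those above and are not separate evidence.

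Beyond the members, other genes of the same pathways moved to a similar or lesser extent. Of other import and assembly factors 5 of 13 tested rose, with a median mean Myc difference of 0.44. Agk, a lipid kinase that is also a subunit of the TIM22 complex, rose by 0.99 ± 0.28 (adjusted p = 0.0206), and Dnajc11, a J protein of the inner membrane organising system, by 1.35 ± 0.34 (adjusted p = 0.0169, chosen after its value was seen). Romo1, which had the smallest unadjusted p after Agk in Myc against wild type, did not pass (0.35 ± 0.15, adjusted p = 0.0798). Of the matrix and inner membrane proteases 9 of 10 rose, again with a median of 0.44. Among these were Lonp1, which degrades misfolded matrix proteins (0.65 ± 0.17, adjusted p = 0.0175), Clpp, the peptidase of the other matrix protease (0.79 ± 0.19, adjusted p = 0.0169), and Afg3l2 of the inner membrane (0.65 ± 0.19, adjusted p = 0.0234). Clpx, the partner that feeds Clpp, was the exception at 0.13 ± 0.10.

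Of 10 other mitochondrial proteins 7 rose (median 0.33), among them the outer membrane channel Vdac1 (0.38 ± 0.11, adjusted p = 0.0202) and cytochrome c, Cycs (0.55 ± 0.15, adjusted p = 0.018). Citrate synthase, Cs, named outside the rule given below, had the smallest difference of the 10, at 0.07 ± 0.07 (adjusted p = 0.444). Mitochondrial content was not measured. Of 7 cytosolic chaperones tested 6 rose (median 0.37), with the constitutive HSP70 Hspa8 at 0.31 ± 0.09 (adjusted p = 0.0187) and the chaperonin subunit Cct3 at 0.85 ± 0.23 (adjusted p = 0.0178). Of the 3 transcription factors linked to mitochondrial stress, none rose and Ddit3 (CHOP) fell, at -1.03 ± 0.29 (adjusted p = 0.0199). Ddit3 read 384, 490 and 260 in wild type, 339, 438 and 135 in TTP, 107, 129 and 187 in Myc, and 205, 163 and 156 in Myc TTP. Atf4 (0.20 ± 0.08, adjusted p = 0.0579) and Atf5 (-0.11 ± 0.14, adjusted p = 0.527) did not pass.

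Markers of other marrow cells differed between the same groups of arrays. Of 13 granulocyte markers, 13 fell with a median mean Myc difference of -3.08, and their summed intensity ranged over 230000 to 321000 in wild type, 181000 to 364000 in TTP, 9360 to 215000 in Myc and 107000 to 161000 in Myc TTP. Of 7 erythroid markers 6 fell (median -2.84), with sums of 2970 to 6950, 2120 to 13700, 136 to 3120 and 371 to 2500 in the same order. Of 5 monocyte and macrophage markers on the array 4 fell (median -1.63), with sums of 22000 to 37100, 15300 to 41100, 1960 to 17800 and 7970 to 14900. Of 10 B lineage markers 9 fell (median -0.76), with sums of 112000 to 158000, 88100 to 149000, 68100 to 101000 and 78000 to 86100. Of 6 T cell markers on the array, Cd3e, Cd3g and Trat1 were never above the floor, and of the 3 tested 1 rose and 2 fell; the sums were 1690 to 3110, 1070 to 2250, 1140 to 1420 and 1070 to 1610. The granulocyte level moved with the arrays numbered 3 as well: their mean log2 intensity was 12.41 on the array labelled wild type 3 and 11.75 on TTP 3, below arrays 1 and 2 of each group (12.85 to 13.59), and 12.08 on Myc 3, above Myc 1 and 2 (6.70 and 8.07). The part of these cell type differences in the result was not tested.

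Where a member had several probe sets they mostly gave the same direction. Of the 20 members with at least 2 probe sets above the floor, the sign of the mean Myc difference was shared in all but Timm10b (-0.13 to 0.18) and Timm17b (-0.01 to 0.13). The difference spanned more than 0.5 on the log2 scale in 3 members, Timm29, Tomm20 and Trap1. A further member, Samm50, was read from a probe set with the cross-hybridisation suffix, and its other set gave 0.65.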

How the data were processed

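Total RNA of 12 samples was measured on Affymetrix MOE430 2.0 arrays. The authors deposited 1 intensity per probe set on a linear scale, summarised with GCRMA per the submitters' processing notes (version not given in the sources used here). GCRMA corrects background, normalizes between arrays and summarises probes, so a change in total RNA per cell cannot be seen. Intensities ran from 1.73 to 120125, and 46.0% to 48.7% of an array's probe sets lay above the floor. With arrays, their number limits the precision.

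Log2 was taken with no pseudocount. The platform annotation gave 34958 probe sets 1 symbol, 932 several and 9211 none, and 34754 of the first were found in RefSeq (GRCm38.p6). For each gene the probe set of highest mean log2 intensity was used. Genes above log2 4 on at least 3 arrays entered limma 3.58.1 in R 4.3.3 (lmFit, eBayes with intensity trend; 4 group means, 8 residual degrees of freedom, two-sided, Benjamini-Hochberg adjusted p under 0.05). Errors are standard errors of this fit, and all adjusted p-values are from it. The procedure was tested on simulated data for the mean Myc difference. Of 100 genes changed by 2 on the log2 scale, more than the mean Myc difference of any member, 94% were recovered. Of 100 further genes changed by 4 in the same simulated set, 98% were recovered. The whole set gave 12 false calls. Smaller changes were not simulated. Noise was drawn separately for each gene, so spread shared between genes was not simulated, and the false calls in the real data may differ.

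The members, gene lists, marker lists and the mean Myc comparison were chosen with earlier results of these data known. Values on all arrays are given for a list of core members and for the 3 with the largest and the 3 with the smallest difference of Myc against wild type. From each list of other genes, the 2 with the smallest p in that comparison are named, with Lonp1, Clpp and Vdac1. Cs, Clpx, Dnajc11, Pam16, Grpel2, Dnajc15 and Atf4 were named outside this rule. Alternatives changed the filter, probe set, scaling, pseudocount, model, replicate block and arrays included. Whether replicate numbers pair the samples was checked on residuals: wild type and TTP correlated by number (0.498, 0.664 and 0.821), but wild type and Myc did not (-0.434, -0.281 and -0.63), so the numbers were not taken as pairs.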

Additional observations from a re-analysis of the deposited data

How the results depend on the processing

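The 26 members called by the mean Myc difference became 24 with no filter, 26 with a floor of log2 6, 25 with the probe set of largest spread (22 of them shared), 28 with quantile normalization, 29 with a common median, 26 with log2(value + 16), 25 with no trend and 21 with an unmoderated model. In the same order, 11%, 20.6%, 17.4%, 26.3%, 25.9%, 18.6%, 18.2% and 16.4% of all genes were called higher, beside 18.7% in the main fit. Leaving out single arrays gave 16 to 29, with 9.34% to 22.9% of all genes called higher, and 16 members were called in all 12 such fits. The 16 arose without wild type 1, wild type 2, TTP 1, Myc 1 or Myc 2 in turn, where 9.34% to 10.3% of all genes were called higher. There were 17 without TTP 2 (11.4% of all genes) and 29 without the array labelled wild type 3 (22.9%). Without the 4 arrays numbered 3 the count was 30 (26.8% of all genes). The 1 member called in Myc against wild type became 0 with no filter, the probe set of largest spread, quantile normalization, a common median, no trend, an unmoderated model or the replicate block. It became 23 without the discordant pair (14% of all genes called higher) and 25 without all 4 arrays numbered 3 (18.4%). Single arrays left out gave 0 to 23: 23 without wild type 3 (11.5% of all genes), 6 without TTP 3 (4.47%) and 3 without Myc 3 (3.13%). In Myc TTP against TTP the 0 became 28 (21% of all genes) without the discordant pair and 29 (23.7%) without the 4 arrays numbered 3. Without single arrays it was 0 to 26, with 26 without wild type 3 (16.7% of all genes) or TTP 3 (18.5%). In Myc TTP against Myc 1 member was called higher without the 4 arrays numbered 3, where 14.1% of all genes were called higher. The members were thus called less often there than all genes, with a median of 0.16 beside 0.31 for all genes. No member was called in TTP against wild type, Myc TTP against Myc or the interaction when single arrays were left out.

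Leaving out single arrays moved the member medians over 0.46 to 0.64 (mean Myc difference), 0.30 to 0.68 (Myc against wild type), 0.59 to 0.82 (Myc TTP against TTP), -0.10 to 0.31 (TTP against wild type), 0.14 to 0.33 (Myc TTP against Myc) and -0.06 to 0.39 (interaction). With a common median the medians were 0.0030 in Myc TTP against Myc and -0.13 in the interaction, and without the 4 arrays numbered 3 the median in Myc against wild type was 0.75. Scaling moved the median of all genes in Myc against wild type from -0.21 to 0.04 (quantile) or 0.05 (common median), with member medians of 0.58 and 0.71. Directions reversed for 4 members with small differences. In the mean Myc difference these were Timm10b (-0.13) and Timm17b (0.13) with the probe set of largest spread, and Timm17b at 0.039 (quantile), 0.086 (common median), 0.015 (without the 4 arrays numbered 3) and -0.079 to 0.024 without single arrays. In Myc against wild type Timm10b was 0.063 (quantile), 0.21 (common median), 0.0094 (without wild type 3, alone or with TTP 3) and 0.052 (without the 4), and Timm17b 0.18, 0.24, 0.044 and 0.097 under the same settings ; without single arrays they ran from -0.11 to 0.0094 and from -0.13 to 0.044. There Pmpca was -0.081 to 0.14 and Pmpcb -0.066 to 0.16 without single arrays. The cause was not tested.

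With the replicate block, 24 members were called by the mean Myc difference (Tomm22 and Tomm7 lost), where 16.2% of all genes were called higher. In Myc against wild type it called 0 members and 0 genes in all. The labels do not say that the numbers pair the samples.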
